A study of Mus musculus with 79 samples.

Results

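The 37 genes described here mark the B cell lineage and were followed through 79 RNA-seq libraries from 51 mice. They were the features of the count and TPM tables whose gene symbol was on a fixed list of B lineage genes, and all 37 were found among the 39063 features with a numeric gene ID. Their roles were set apart: 8 precursor genes (Vpreb1, Vpreb3, Igll1, Rag1, Rag2, Dntt, Il7r and Lef1), 9 genes used by B cells at most stages (Cd79a, Cd79b, Pax5, Blnk, Blk, Cd72, Cd37, Pou2af1 and Spib), 11 genes of mature B cells (Ms4a1, Cd22, Cr2, Fcer2a, Cxcr5, Tnfrsf13c, Tnfrsf13b, Bank1, Fcrla, Fcrl1 and Bach2), 4 genes of MHC class II antigen presentation (Cd74, H2-Aa, H2-Ab1 and Ciita) and 5 plasma cell genes (Mzb1, Jchain, Xbp1, Irf4 and Prdm1). Of these, 35 were among the 14873 features with a mean of at least 0.4 TPM (a level per transcript length, scaled to the same total in each library) over all libraries. Rag1 and Rag2 were below that mean, at 0.364 and 0.224 TPM, and are given by their levels.

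The mice were 4 to 5 months old, on a mixed SJL and C57BL6 background. WT littermates (BMAd-Pnpla2+/+) and cKO mice (BMAd-Pnpla2-/-), in which Pnpla2, the gene of the triglyceride lipase ATGL, is deleted in bone marrow adipocytes, received PBS or leptin at 100 ng per h into the cerebral ventricles (ICV) for 9 days from a pump. After the first days mice received a pre-weighed daily food portion, below the average intake of control mice. The study set it from the intake of leptin-treated mice of another strain. Mice were housed singly, and leptin mice that did not respond were left out by the study. Caudal vertebrae (CV), whose marrow is rich in adipocytes, came from all 51 mice. In females these were 5 WT with PBS, 5 WT with leptin, 4 cKO with PBS and 4 cKO with leptin, and in males 5, 8, 5 and 4 in the same order. A further 5 male WT mice with PBS and 6 with leptin carried a subcutaneous insulin pellet. Lumbar vertebrae (LV), whose marrow is mostly blood forming, came from the same 18 females, and inguinal white adipose tissue (iWAT) from the 5 PBS and 5 leptin female WT mice.

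B cells arise in the bone marrow, where pro-B and pre-B cells cut and join their immunoglobulin genes with RAG1 and RAG2, add bases at the joints with terminal transferase (Dntt), and test the new heavy chain on a surrogate light chain made of the Vpreb1 and Igll1 products. The signalling chains Cd79a and Cd79b stay with the receptor through most of B cell life, while Ms4a1 (CD20), Cd22 and the IgE receptor Fcer2a (CD23) rise with maturity. Antigen-presenting cells show peptides on MHC class II, which B cells share with dendritic cells and macrophages, and plasma cells turn on Jchain, Xbp1 and Prdm1 to secrete antibody. Several members also act elsewhere: Il7r and Lef1 in T cells, Xbp1 in many secretory cells, and Irf4 in T cells, myeloid cells and adipocytes. Bulk RNA cannot tell fewer B cells from less RNA per B cell, which holds for every level below.

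The promoters of 4 members are shown because their transcripts carried the main contrasts: the surrogate light chain pair that separated LV from the other tissues, Cd79a as the reference for B cells, and H2-Aa, which was higher with leptin in LV. Each line holds the 250 bases before the gene start from the RefSeq table of GRCm38.p6, read 5′ to 3′ on the gene's strand, with motif matches in capitals.
Vpreb1 (chr16:16869256-16869505, minus strand): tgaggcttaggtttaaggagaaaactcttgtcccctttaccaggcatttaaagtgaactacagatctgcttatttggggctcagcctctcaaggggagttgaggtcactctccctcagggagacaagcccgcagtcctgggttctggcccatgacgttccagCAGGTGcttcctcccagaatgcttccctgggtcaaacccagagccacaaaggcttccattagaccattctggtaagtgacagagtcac
Igll1 (chr16:16863986-16864235, minus strand): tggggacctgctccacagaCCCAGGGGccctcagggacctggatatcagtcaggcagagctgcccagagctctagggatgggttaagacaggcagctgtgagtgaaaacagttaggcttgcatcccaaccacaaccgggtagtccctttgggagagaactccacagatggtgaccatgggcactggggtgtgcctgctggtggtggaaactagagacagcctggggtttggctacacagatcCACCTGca
Cd79a (chr7:24897247-24897496, plus strand): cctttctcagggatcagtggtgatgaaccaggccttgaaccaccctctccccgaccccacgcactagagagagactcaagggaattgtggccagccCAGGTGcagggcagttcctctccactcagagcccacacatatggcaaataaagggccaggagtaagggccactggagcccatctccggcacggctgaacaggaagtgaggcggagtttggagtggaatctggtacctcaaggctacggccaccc
H2-Aa (chr17:34287824-34288073, minus strand): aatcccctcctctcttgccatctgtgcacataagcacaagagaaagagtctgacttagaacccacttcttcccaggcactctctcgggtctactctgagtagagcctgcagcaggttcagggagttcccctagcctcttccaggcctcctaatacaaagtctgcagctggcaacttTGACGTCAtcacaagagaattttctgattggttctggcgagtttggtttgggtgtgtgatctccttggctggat
The capitals mark CAGGTG on either strand (a site of the kind bound by E proteins) in Vpreb1, Cd79a and, as CACCTG, in Igll1, where CCCNNGGG (the core of EBF1 sites) was matched as well, and TGACGTCA (the cyclic AMP response element) in H2-Aa. Searched on both strands, CAGGTG was present in 14 of the 29 members with a promoter in the table and in 17.2% of 32851 promoters, CCCNNGGG in 4 members and 11.8%, the octamer ATGCAAAT in 2 members (Blnk and Vpreb3) and 1.60%, and TGACGTCA in 1 member and 1.55%. The end of Vpreb1 lies 4415 bases before the start of Igll1 on the same strand. A match describes the letters only, and binding was not measured.

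Total counts per library were 16100377 to 19364106 in CV, 28717516 to 29757254 in LV and 17638318 to 19100698 in iWAT, and the members took 24570 to 87069 counts of a CV library, 62041 to 91441 of an LV library and 38040 to 127213 of an iWAT library. In PBS mice Pnpla2 was at 251 ± 30.02 TPM (SD, n = 5) in female WT CV and 179 ± 58.4 (n = 4) in female cKO CV, and at 244 ± 42.9 (n = 5) and 167.96 ± 34.6 (n = 5) in males. Immunoglobulin constant genes (Ighm, Ighd, Igha, Ighg1, Ighg2b, Ighg2c, Ighg3 and Igkc) were listed at 0 in all 79 libraries, so antibody transcripts themselves are not analysed here. Mice fell into number series (100s, 600s and others) that the labels do not explain, and the 11 insulin mice had series of their own.

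**Figure D1:**
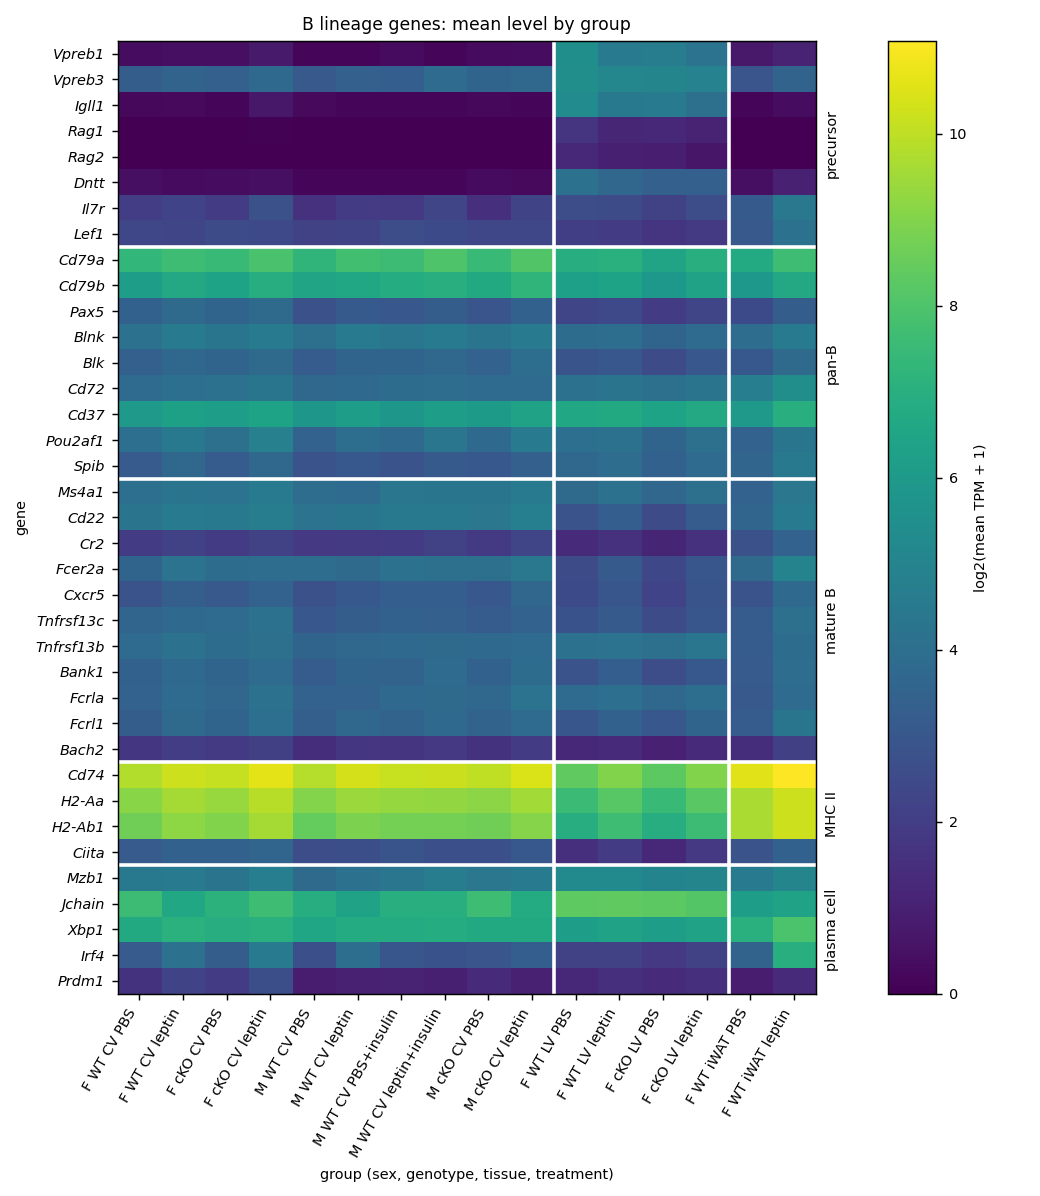
Mean level of the 37 genes, as log2(TPM + 1), in each of the 16 groups, ordered by role (top to bottom) and by tissue (left to right). The precursor genes Vpreb1, Igll1, Dntt, Rag1 and Rag2 stand out in the 4 LV groups and are near 0 in CV and iWAT, whereas Cd79a and the antigen presentation genes are present in all 3 tissues.

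The first comparison asked where each stage of the lineage was expressed, in the PBS female WT mice that gave all 3 tissues. The surrogate light chain genes were LV genes. Vpreb1 was at 30.7, 35.6, 40.4, 43.4 and 74.2 TPM in the 5 LV libraries, and at 0.51, 0, 0.69, 0 and 0.18 TPM in CV of the same mice. Igll1 was at 22.6, 29.1, 37.4, 38.1 and 69.7 TPM in LV and at 0, 0, 0.72, 0 and 0.15 TPM in CV. The tissues did not overlap for either gene, and the CV values rested on 0 to 5 counts per library. Called here means an adjusted p under 0.05 (edgeR quasi-likelihood test with Benjamini-Hochberg adjustment over all 14873 features) together with a log2 fold change of at least 0.5 in size. The log2 fold change of CV against LV was −8.41 for Vpreb1 (SE 0.48, adjusted p = 3.9e-09), −8.87 for Igll1 (SE 0.59) and −6.59 for Dntt (SE 0.36), which depends on the prior count where CV libraries are at 0.

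Rag1 and Rag2 had the same distribution by level. All 37 members were above 0 in every LV library, and 5 were at 0 in at least 1 CV library (Vpreb1, Igll1, Rag1, Rag2 and Dntt). Rag1 averaged 2.31 TPM in LV, 0.022 in CV and 0.004 in iWAT, and Rag2 1.33, 0.012 and 0. The IL-7 receptor Il7r and Lef1, which T cells also use, were spread more evenly: Il7r averaged 5.19 TPM in LV, 2.98 in CV and 7.85 in iWAT, and Lef1 3.18, 4.15 and 7.57. Vpreb3, which stays on beyond the pre-B stage, was at 44.0 TPM in LV against 8.53 in CV and 6.55 in iWAT. In the ratio to Cd79a, a gene of most B cell stages, Vpreb1 was at 29.3% to 45.8% of the Cd79a level in LV of the PBS female WT mice. It was at 0.421% or less in CV of the same mice. In LV of female WT leptin mice it was at 11.9% to 27.6%, and in all 51 CV libraries of every group at 0.458% or less.

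By TPM, later stages did not follow the precursor genes. Cd79a was at 121, 169.5, 199, 184.1 and 131 TPM in CV and at 105, 97.9, 112, 120 and 161.9 TPM in LV, ranges that overlapped. Ms4a1 averaged 15.5 TPM in CV, 13.2 in LV and 10.2 in iWAT. Its ratio to Cd79a, taken in each library and then averaged, was 9.64%, 11.3% and 8.00%. Cd22, an inhibitory receptor, averaged 18.03 TPM in CV, 6.19 in LV and 11.4 in iWAT. The antigen presentation genes were highest in iWAT, where Cd74, the invariant chain of MHC class II, averaged 1540 TPM against 890 in CV and 329 in LV. H2-Ab1, a class II beta chain, averaged 830, 411 and 120 TPM in the same order. The antibody joining chain Jchain was highest in LV, at 294 to 404 TPM, against 36.3 to 387 in CV and 51.5 to 102 in iWAT. By mean TPM the tissue with the highest level was LV for 6 of 8 precursor genes, and CV for 4 and LV for 4 of 9 genes used at most stages. It was CV for 6 of 11 mature genes, and iWAT for 3 of 4 antigen presentation genes. The same order was not counted over all features. In limma on log2(TPM + 1), 66.3% of all features were called higher in CV than in LV and 10.5% lower, so TPM orders of these tissues depend on scaling.

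In the test of CV against LV, 2 members were higher in CV (H2-Ab1, log2 fold change 0.65, and the class II regulator Ciita, 0.94) and 21 lower, where 34.9% of all features were called higher and 31.7% lower. All 6 tested precursor genes were lower, with 7 of 9 genes used at most stages, 5 of 11 mature genes and 3 of 5 plasma cell genes, among them Mzb1, an antibody folding factor (−1.97), and Jchain (−1.86). For LV against iWAT 19 members were higher and 5 lower, beside 32.6% and 33.9% of all features. The 5 lower were the 4 antigen presentation genes and Irf4, and the higher ones included Vpreb1 (6.95), Igll1 (8.99), Jchain (3.10) and Prdm1 (1.60). For CV against iWAT 4 members were higher (Pax5 0.97, Tnfrsf13b 0.53, Jchain 1.26 and Prdm1 1.14) and 7 lower (Il7r, Lef1, Cd72, Cd74, H2-Aa, H2-Ab1 and Irf4), beside 26.0% and 24.5% of all features. These calls are relative to the scaling between tissues. When log2(TPM + 1) values were tested in limma, CV against LV gave 13 members higher and 9 lower, beside 66.3% and 10.5% of all features. With total counts as library size it gave 6 and 17, beside 43.3% and 23.2%, and the median of all features moved by 0.87 and 0.32 under these scalings. Cd79a then stood higher in CV by 0.42 in limma, against −0.72 in the scaled counts. The precursor genes Vpreb1, Igll1, Vpreb3, Dntt and Il7r were called lower in CV under each scaling. So were Cd37 and Spib of the genes used at most stages, and the plasma cell genes Mzb1 and Jchain.

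Within LV the next question was whether ICV leptin changed the stages of the lineage, and the surrogate light chain genes averaged lower and the antigen presentation genes higher, at sizes that passed the test in some fits only. In the 5 female WT leptin libraries Vpreb1 was at 13.6, 13.0, 38.1, 26.3 and 26.8 TPM, against 30.7 to 74.2 with PBS. Igll1 was at 14.6, 11.7, 33.6, 25.0 and 21.5 TPM, against 22.6 to 69.7. Both overlapped between the groups over all mice, with lower leptin means of 23.6 and 21.3 TPM. H2-Aa, a class II alpha chain, was at 381, 284, 272, 312 and 243 TPM with leptin and at 202, 162.6, 184.6, 166.3 and 229 with PBS, and these ranges did not overlap. Cd74 was at 423 to 614 TPM with leptin and at 284 to 439 with PBS, overlapping by 1 mouse of each group. Among later genes Cd79a was at 113, 110, 138, 163.2 and 122 TPM with leptin, overlapping its PBS values, and Ms4a1 was at 14.9 to 19.3 TPM against 11.7 to 15.0. Cd22 was at 8.99, 11.2, 6.63, 9.80 and 8.13 TPM with leptin and at 7.70, 6.65, 5.63, 4.30 and 6.67 with PBS, overlapping.

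**Figure D2:**
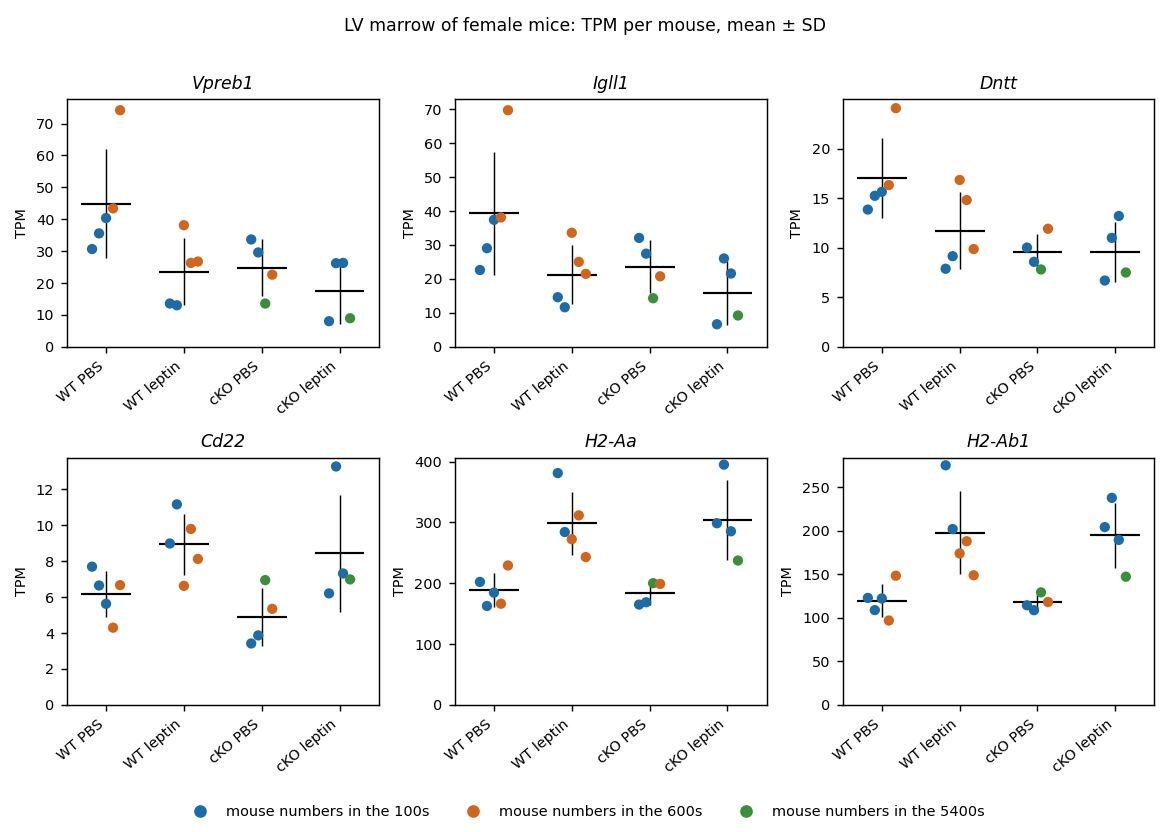
TPM in each mouse of the 4 LV groups (female WT and cKO, PBS and leptin) for Vpreb1, Igll1, Dntt, Cd22, H2-Aa and H2-Ab1, with points coloured by mouse number series and bars at the mean ± SD. The leptin mice lie above the PBS mice of their genotype for H2-Aa, and lower on average for Vpreb1 and Igll1 with overlap.

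In the test within female WT LV none of the 35 members was called with edgeR, beside 0% of all features. At an unadjusted p under 0.05, 14 members were higher and 3 lower, among 2183 of all features. Vpreb1 had a log2 fold change of −0.97 (SE 0.34, adjusted p = 0.216) and Igll1 −0.93 (adjusted p = 0.238), and H2-Aa had 0.61 (SE 0.11, adjusted p = 0.0680). DESeq2 called 6 members higher (Fcer2a, Cxcr5, Bank1, Cd74, H2-Aa and H2-Ab1), beside 0.968% of all features, and limma called 0. The median log2 fold change was −0.50 over the 6 precursor genes tested, 0.36 over the 11 mature genes, 0.61 over the 4 antigen presentation genes and −0.04 over the 5 plasma cell genes, beside 0.01 over all features. All 11 mature genes and none of the 6 precursor genes were above 0.

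The levels also differed by mouse number series. In the 100s series of WT mice Vpreb1 was at 30.7 to 40.4 TPM in 3 PBS mice and at 13.0 to 13.6 in 2 leptin mice, and in the 600s series at 43.4 to 74.2 in 2 PBS mice and 26.3 to 38.1 in 3 leptin mice, so within each series the treatments did not overlap. With the series as a covariate 6 members were called in WT LV, beside 0.524% of all features. Vpreb1 (−1.23, adjusted p = 0.0287), Igll1 (−1.15, adjusted p = 0.0375) and Dntt (−0.72, adjusted p = 0.0489) fell, and H2-Aa (0.61), H2-Ab1 (0.69) and Ciita (0.71) rose. Relative to Cd79a in each mouse, Vpreb1 averaged 36.7% with PBS and 17.9% with leptin, where the ranges of 29.3% to 45.8% and 11.9% to 27.6% did not overlap.

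The cKO mice gave the same direction with fewer mice. Vpreb1 was at 33.7, 29.6, 13.6 and 22.6 TPM with PBS and at 8.05, 26.2, 26.3 and 8.97 with leptin, which overlapped. H2-Aa was at 164.95, 168.7, 200.2 and 199 TPM with PBS and at 299, 395, 285 and 237 with leptin, without overlap. Cd79a was at 71.9 to 101 TPM with PBS and 104 to 167.01 with leptin, again without overlap. In edgeR none of the members was called, beside 0% of all features. At an unadjusted p under 0.05, 10 were higher, among 1331 of all features. DESeq2 called Cd74, H2-Aa and H2-Ab1 higher, beside 0.484% of all features, and limma called 0. The interaction of genotype and leptin in LV, which tests the difference between the WT and cKO responses, called no member, beside 0% of all features, and no member was at an unadjusted p under 0.05, against 294 of all features. DESeq2 and limma also called 0, and the difference in the leptin response (cKO minus WT, log2) was 0.26 for Vpreb1 (SE 0.57) and −0.00 for H2-Aa (SE 0.17).

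All 18 LV libraries were then fitted together, with genotype as a covariate, a fit added after the data were seen. In it 6 members were called, all higher with leptin, beside 1.11% of all features. They were Cd22 (log2 fold change 0.55, SE 0.12, adjusted p = 0.0167), the follicle homing receptor Cxcr5 (0.58, adjusted p = 0.0184), Cd74 (0.57, adjusted p = 0.00602), H2-Aa (0.59, SE 0.08, adjusted p = 0.00223), H2-Ab1 (0.63, adjusted p = 0.00313) and Ciita (0.62, adjusted p = 0.0464). With no fold threshold 9 of 35 members passed, all higher, beside 5.41% of all features. Vpreb1 was at −0.87 (SE 0.28, adjusted p = 0.0724) and Igll1 at −0.88 (SE 0.27, adjusted p = 0.0653) and did not pass. Of the 5 plasma cell genes 3 were above 0, with a median of 0.05.

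Markers of other cells moved in the same 18 libraries. Of 12 T and NK cell genes 5 were called higher with leptin (Cd8b1 0.96, Cd8a 0.88, Cd3e 0.67, Cd3g 0.60 and Cd3d 0.57), and their summed level in WT LV was 146 to 164.7 TPM with PBS and 181.96 to 217 with leptin. None of 10 macrophage genes was called, with sums of 469 to 676 and 486 to 759 TPM, and 1 of 9 dendritic cell genes was (Cd209a, 0.56). Of 10 erythroid genes 2 were lower, Klf1 (−0.59) and Rhd (−0.55), and all 10 were below 0. All 10 cell cycle genes were below 0 as well, with 5 at an adjusted p under 0.05 and none past the fold threshold, and their sum in WT LV was 1110 to 1224 TPM with PBS and 886 to 1165 with leptin. Among 11 other mature B cell and antigen presentation genes, 5 were higher, with Ccr7 at 0.66 and H2-Eb1 at 0.64. The part of these shifts in the precursor and class II levels was not tested.

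Genotype alone was compared in PBS mice. In female LV no member was called with edgeR, DESeq2 or limma, beside 0% of all features, and 7 were lower in cKO at an unadjusted p under 0.05, among 388 of all features. Vpreb1 averaged 44.8 TPM in WT and 24.9 in cKO (log2 −0.77, SE 0.33, adjusted p = 1), and Dntt 17.0 and 9.59 TPM, where the cKO range of 7.82 to 11.9 lay below the WT range of 13.9 to 24.1. All 6 precursor genes tested were below 0, with a median of −0.55, and Cd79a was at −0.36 (SE 0.16). In female CV no member was called by any of the 3 tools, beside 0% of all features, and none was at an unadjusted p under 0.05, against 1476 of all features. In male CV likewise none was called, beside 0% of all features, with 4 higher at an unadjusted p under 0.05, against 789.

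In CV the question was whether leptin changed B lineage genes where marrow adipocytes are abundant. In a joint fit 32 of 35 members lay above 0 with leptin, and few were called in single groups. In female WT CV, H2-Aa averaged 547 ± 71.9 TPM (SD, n = 5) with PBS and 777 ± 123 (n = 5) with leptin (log2 0.47, SE 0.13, adjusted p = 0.0422), which misses the fold threshold, and no member was called with edgeR, beside 5.04% of all features. At an unadjusted p under 0.05, 12 members were higher and 1 lower, among 3841 of all features, and DESeq2 and limma called 1 each, beside 6.84% and 4.18% of all features. The median was 0.35 over the members and −0.01 over all features. Without the leptin mouse of replicate 3, 5 members were called higher (H2-Aa at 0.57, adjusted p = 0.0175), beside 4.97% of all features. Without the PBS mouse of replicate 3 there were 3 (H2-Aa at 0.54), beside 5.18%, and without the PBS mouse of replicate 5 there was 1, lower, beside 4.50%.

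In male WT CV 1 member was called, Irf4, beside 1.75% of all features, and 8 were higher and 1 lower at an unadjusted p under 0.05, among 2822 of all features. In female cKO CV none was called with edgeR, beside 0.0269% of all features, 2 were higher at an unadjusted p under 0.05, among 1723 of all features, DESeq2 called 1 (Irf4), beside 1.47% of all features, and limma 0. In male cKO CV Il7r was called, beside 0.188% of all features. It was at 2.14, 1.61, 1.76, 1.60 and 2.13 TPM with PBS and at 4.13, 3.55, 4.73 and 3.02 with leptin, without overlap (log2 1.10, SE 0.17, adjusted p = 0.0390). In the same mice 20 of 35 members were higher and 1 lower at an unadjusted p under 0.05, among 1436 of all features. Without the leptin mouse of replicate 4, which had the lowest Cd79a of its group at 137 TPM, 4 members were called (Il7r, Pou2af1, Cxcr5 and Fcrla), beside 0.437% of all features, and leaving out any one of 7 other mice gave 0, with the adjusted p of Il7r between 0.0516 and 0.127, while Il7r stayed called without the PBS mouse of replicate 5. The Il7r call was also lost with the mouse number series as a covariate (adjusted p = 0.135) and with a replicate block (adjusted p = 0.0688).

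**Figure D3:**
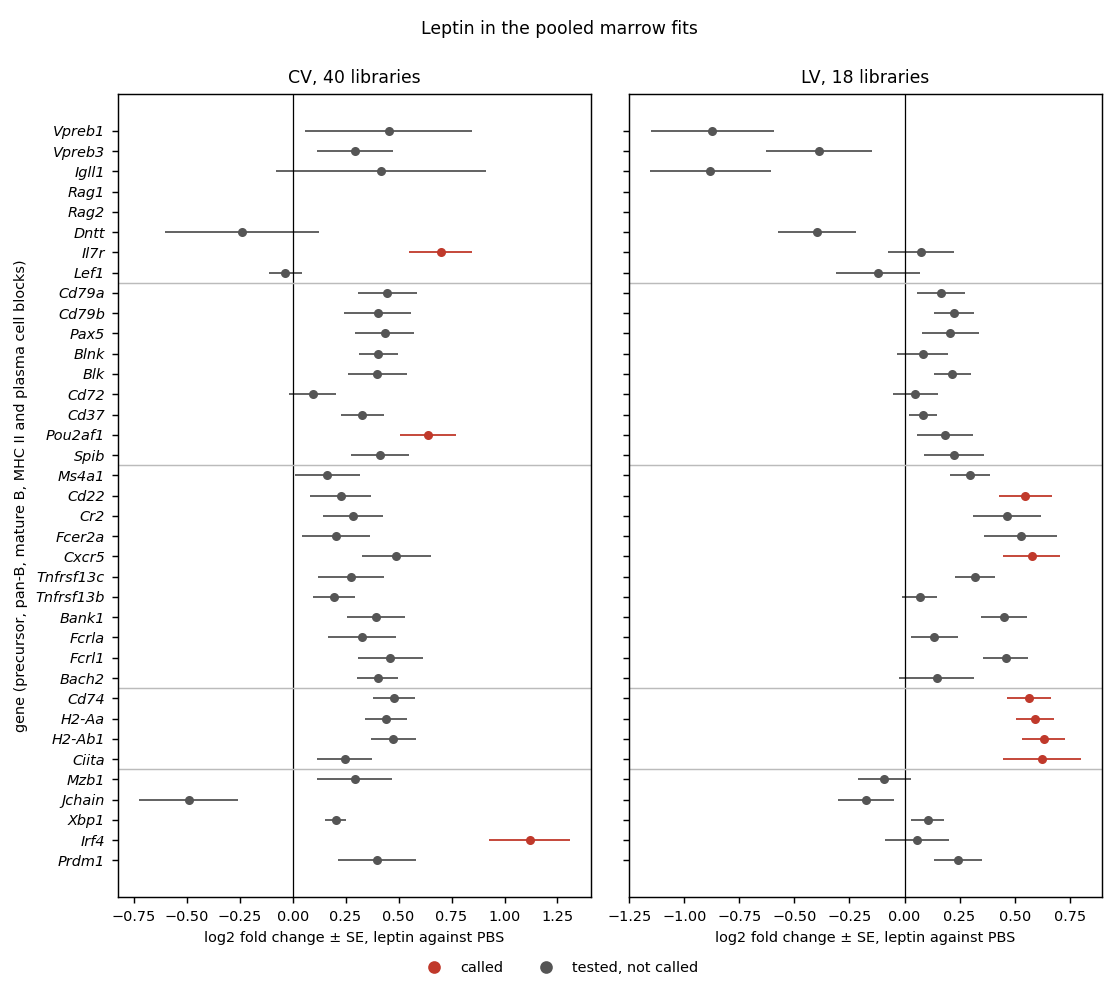
Log2 fold change of leptin against PBS with its SE for the 35 tested genes, in the fit of 40 CV libraries without insulin (left) and of 18 LV libraries (right), by role, with called genes in red. In CV 32 of 35 genes lie above 0 and Irf4, Il7r and Pou2af1 are called, and in LV the 4 antigen presentation genes, Cd22 and Cxcr5 are called while Vpreb1 and Igll1 lie lowest.

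The 40 CV libraries without insulin, 21 with leptin and 19 with PBS, were also fitted together. The covariates were sex, genotype and their interaction, in a fit added after the data were seen. In it 3 members were called, all higher, beside 5.37% of all features: Irf4 (log2 1.12, SE 0.19, adjusted p = 3.03e-05), Il7r (0.70, SE 0.15) and Pou2af1 (0.64, SE 0.13), the B cell coactivator of octamer sites. With no fold threshold 17 of 35 members passed, all higher, beside 26.9% of all features. They held 7 of 9 genes used at most stages, with Cd79a at 0.45 (SE 0.14, adjusted p = 0.0161), 4 of 11 mature genes, and 3 of 4 antigen presentation genes, with Cd74 at 0.48, H2-Aa at 0.44 and H2-Ab1 at 0.48. The median was 0.40 over the members and 0.00 over all features, and 32 of 35 members were above 0. Jchain (−0.49, SE 0.23, adjusted p = 0.116), Dntt (−0.24) and Lef1 (−0.04) were the 3 below 0. Ms4a1 was at 0.16 (SE 0.15, adjusted p = 0.452) and Cd72 at 0.09 (SE 0.11, adjusted p = 0.560).

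Other cells moved in these libraries as well. All 10 cell cycle genes were called higher with leptin, with sums in female WT CV of 21.0 to 63.3 TPM with PBS and 54.9 to 107 with leptin. Of 12 T and NK cell genes 4 were higher (Cd3d 0.67, Cd4 0.62, Cd3e 0.61 and Klrb1c 0.54) and all 12 were above 0. Of 10 macrophage genes 2 were higher (Cd68 0.57 and Vcam1 0.56), with sums in female WT of 1417 to 1958 and 1601 to 2372 TPM. Of 8 adipocyte genes 6 were lower, among them Plin1 (−1.46), Adipoq (−0.99) and the leptin gene Lep (−6.66). Of 10 erythroid genes 3 were higher (Alas2 1.65, Hbb-bt 1.501 and Hba-a1 1.49) and 5 were above 0, and of 5 lymph node genes 2 were higher (Madcam1 2.23 and Cxcl13 1.00). The part of these shifts in the B lineage values was not tested.

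Irf4, a transcription factor of plasma cells that adipocytes, T cells and myeloid cells also make, had the largest leptin difference of the members in iWAT and in the joint CV fit. In male WT CV it was at 4.36 to 6.98 TPM in 5 PBS mice and at 9.18, 21.5, 10.6, 9.58, 7.85, 19.7, 22.3 and 19.8 TPM in 8 leptin mice, without overlap (fold 2.65, log2 1.41, SE 0.28, adjusted p = 0.0151), a call that was lost without the PBS mouse of replicate 2 (log2 1.34, adjusted p = 0.0556) and with a replicate block (log2 0.92, adjusted p = 0.132). Within the 100s series leptin mice were at 7.85 to 21.5 TPM and PBS mice at 4.36 to 6.98, and within the 600s series at 19.7 to 22.3 and 4.68 to 5.74. In female cKO CV it was at 7.30 to 11.3 TPM with PBS and at 24.6, 13.3, 17.4 and 33.6 with leptin, without overlap but not called (log2 1.53, SE 0.36, adjusted p = 0.220). In female WT CV the leptin values of 9.94, 5.78, 46.7, 13.2 and 8.55 TPM overlapped the PBS range of 6.89 to 10.8 (log2 0.93, adjusted p = 0.218). This log2 ran from 0.15 to 1.12 over the alternative fits. The 46.7 TPM came from the leptin mouse of replicate 3, the same mouse as replicate 3 of the iWAT leptin group. In male cKO CV the values were 4.97 to 7.96 TPM with PBS and 8.04 to 9.73 with leptin (log2 0.55, SE 0.09, adjusted p = 0.0505). In all LV libraries Irf4 was at 1.82 to 5.90 TPM, and the leptin change in WT LV was −0.05 (SE 0.18).

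**Figure D4:**
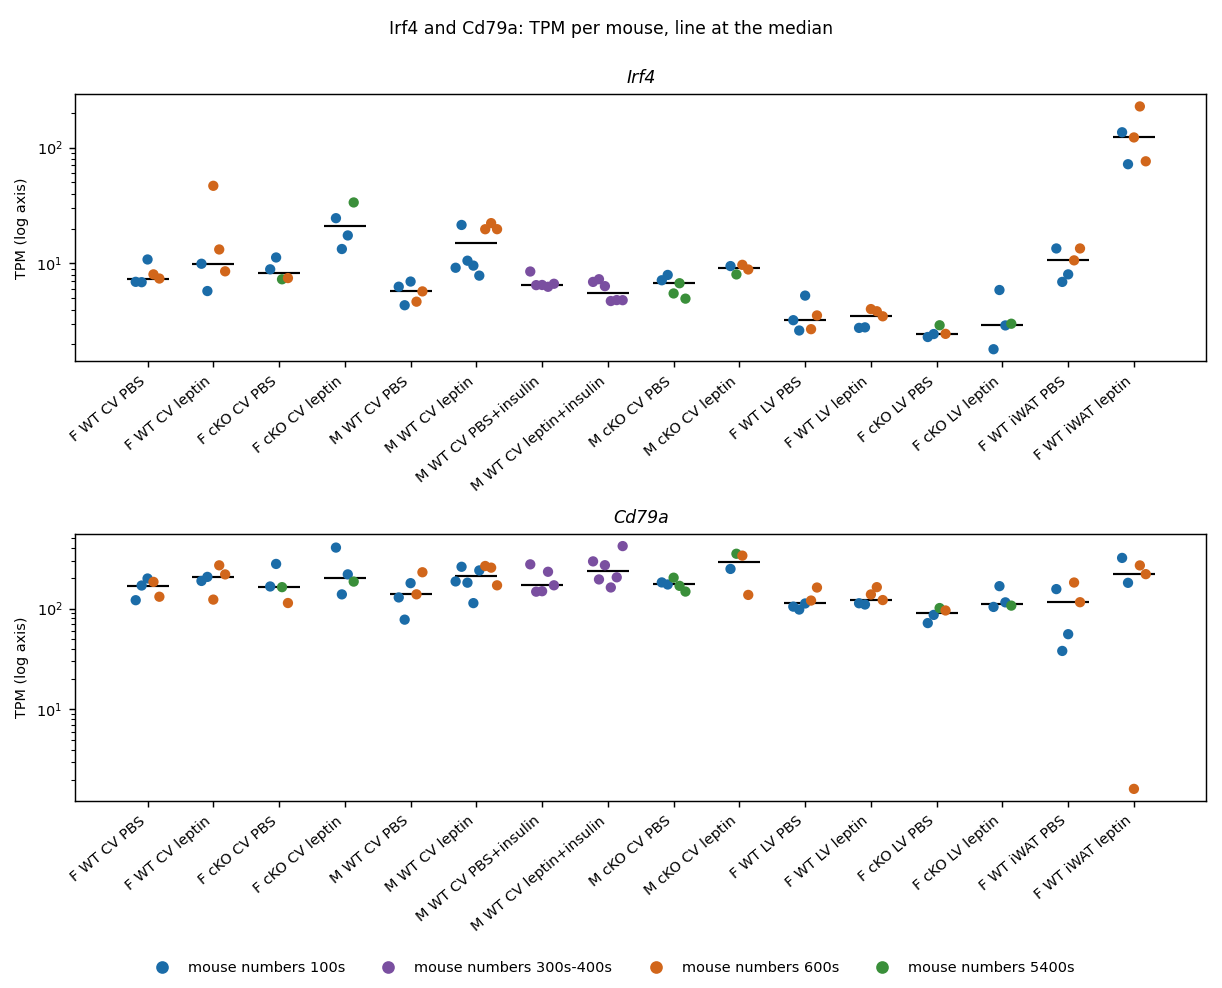
TPM of Irf4 and Cd79a in each mouse of all 16 groups on a log axis, with a line at the group median. In iWAT the 5 leptin mice lie above the 5 PBS mice for Irf4, and in male WT CV the leptin mice without insulin lie above the PBS mice while the 6 leptin mice with insulin do not, and Cd79a overlaps between treatments in every comparison but cKO LV.

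The insulin pellet comparison was made in male WT CV. In the 6 mice given leptin and insulin Irf4 was at 6.93, 7.31, 6.37, 4.74, 4.83 and 4.82 TPM, below all 8 leptin mice without the pellet. It was the 1 member called, lower in the insulin mice (log2 −1.40, SE 0.22, 2.63-fold, adjusted p = 0.00683), beside 0.363% of all features. The insulin mice were of other number series than the mice without pellets, so insulin and series cannot be told apart. PBS with insulin against PBS called 0 members with edgeR, DESeq2 and limma, beside 0% of all features, with 2 at an unadjusted p under 0.05 against 976 of all features, and Irf4 at 0.22 (SE 0.25). Leptin within the insulin mice also called 0 with the 3 tools, beside 0.558% of all features, with 4 at an unadjusted p under 0.05 against 2312, and Irf4 at −0.21 (SE 0.24). The interaction of insulin and leptin for Irf4 was −1.62 (SE 0.33, adjusted p = 0.194) and called no member with the 3 tools, beside 0% of all features. Irf4 was the 1 member at an unadjusted p under 0.05, among 1385 of all features. Cd79a was not resolved by any of these comparisons, at 195 ± 56.5 TPM (n = 5) with PBS and insulin and 257 ± 92.5 (n = 6) with leptin and insulin.

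In iWAT 4 of 35 members were called, all higher with leptin, a smaller share than the 15.1% of all features, and they were 3 of the 5 plasma cell genes and Il7r. Irf4 was at 13.47, 6.93, 8.05, 10.6 and 13.47 TPM with PBS and at 135, 71.8, 122, 226 and 76.0 with leptin, a fold of 13.0 (log2 3.70, SE 0.36, adjusted p = 1.0e-04). Xbp1, which builds the secretory apparatus in plasma cells and other cells, was at 101 to 155 TPM with PBS and 186.8 to 321 with leptin (fold 1.98, adjusted p = 0.00477). Prdm1, the plasma cell repressor also made by T cells, was at 0.53 to 1.19 TPM and 1.31 to 2.02 (fold 1.91, adjusted p = 0.00880). For these 3 genes every leptin mouse was above every PBS mouse, a separation that was not counted over all features. At an unadjusted p under 0.05, 10 members were higher, among 5947 of all features. Il7r was at 17.8, 3.41, 3.77, 6.4 and 7.83 TPM with PBS and at 17.9, 20.8, 9.77, 27.7 and 26.0 with leptin, with overlap (fold 2.80, adjusted p = 0.0301), and this call was lost without any one of 7 of the 10 mice (adjusted p from 0.0501 to 0.0751), the exceptions being the PBS mouse of replicate 1 and the leptin mice of replicates 2 and 3. Among 12 T and NK cell genes, which share Il7r, 1 was called higher (Klrb1c, 0.96) and all 12 were above 0, with sums of 104 to 283 TPM with PBS and 49.5 to 543 with leptin. Of 8 adipocyte genes, a cell that also makes Irf4, 4 were lower and 1 higher, and Plin1 was at 814 to 1185 TPM with PBS and 345 to 591 with leptin. The part of these cells in the Il7r and Irf4 values was not tested. The other plasma cell genes were not called, with Jchain averaging 73.1 TPM with PBS and 82.2 with leptin, and Mzb1 22.5 and 32.4. Plasma cell genes outside the members were mixed. Fkbp11 averaged 10.5 TPM with PBS and 9.31 with leptin, and Txndc5 118 and 102. Averages were higher with leptin for Sdc1 (22.0 and 27.8), Tnfrsf17 (2.06 and 2.53), Derl3 (1.78 and 4.09) and Cd28 (2.38 and 5.44).

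The other iWAT members varied widely between mice. Cd79a was at 156, 38.0, 55.8, 181 and 116 TPM with PBS and at 318, 180, 1.63, 268 and 220 with leptin. The leptin mouse of replicate 3 stood far below the others for Cd79a and also for Fcer2a, at 0.17 TPM against 21.6 to 43.6. Glycam1, a product of the high endothelial venules of lymph nodes, was at 1.33 TPM in that mouse, 577 to 1266 in the other 4 leptin mice and 43.4 to 612 in PBS mice. Cxcl13, of the same list, went the other way. It was at 125 TPM in that mouse, 59.0 to 110 in the other 4 leptin mice and 22.0 to 60.5 in PBS mice. A summed list of 6 lymph node genes was at 208 to 1122 TPM with PBS and 187.3 to 2646 with leptin, and the T cell gene Cd3e was at 2.74 TPM in the same mouse against 36.7 to 42.8 in the other leptin mice. Without it, 19 members were called higher against 4 with it, beside 19.1% and 15.1% of all features, among them Cd79a (log2 1.23, adjusted p = 0.0417), Cd74 (0.74), H2-Aa (0.76) and H2-Ab1 (0.76), while Irf4 (3.68), Xbp1 (0.87) and Prdm1 (0.96) remained called and Il7r as well.

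**Figure D5:**
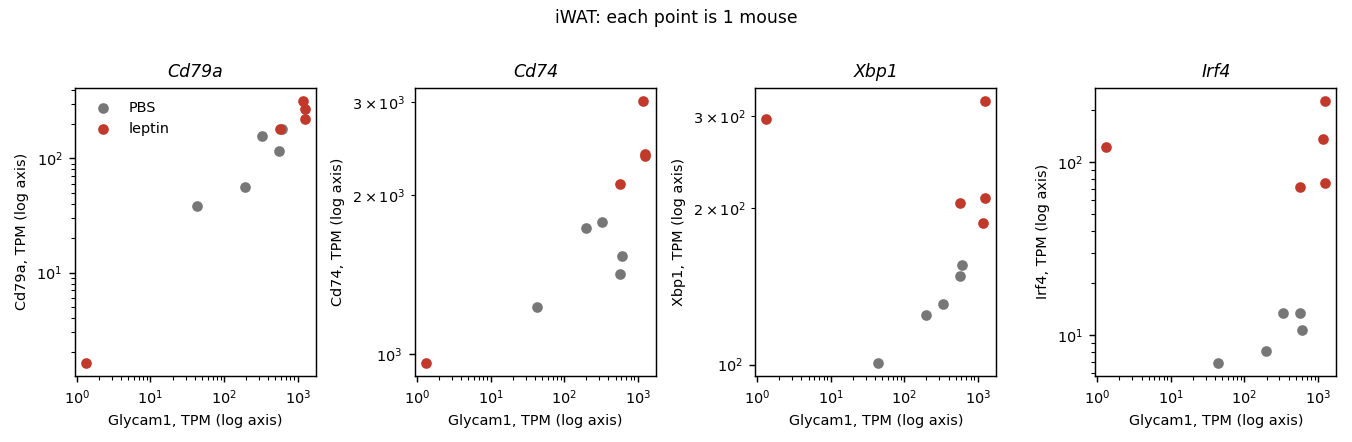
TPM of Cd79a, Cd74, Xbp1 and Irf4 against TPM of Glycam1 in the 10 iWAT mice on log axes, with PBS mice in grey and leptin mice in red. Cd79a and, less steeply, Cd74 follow Glycam1 across mice, including the leptin mouse at 1.33 TPM of Glycam1, whereas Xbp1 and Irf4 separate by treatment at any level of Glycam1.

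Across the 10 iWAT libraries the correlation with Glycam1 on the log2(TPM + 1) scale was 0.983 for Cd79a, 0.986 for Mzb1, 0.920 for Ms4a1 and 0.841 for Cd74, given as a description of libraries of the same tissue pieces. For the genes called in iWAT it was 0.0905 for Irf4, −0.0407 for Xbp1, 0.134 for Prdm1 and 0.471 for Il7r. The values depended on the lymph node gene used. Ccl19 gave 0.942 for Cd79a and 0.213 for Irf4, and Ccl21a gave 0.875 and 0.497. Cxcl13 gave −0.0705 for Cd79a, against 0.892 for Irf4, 0.869 for Xbp1, 0.60 for Prdm1 and 0.63 for Il7r. How much lymph node tissue each iWAT sample held was not measured, and its part in the leptin values of Cd79a and the antigen presentation genes was not tested.

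Differences between responses were tested as interactions. The leptin response of female and male WT CV differed for no member (0% of all features called), with 0 at an unadjusted p under 0.05 against 1130 of all features. Genotype and leptin gave no member in female CV (0% of all features, 0 members against 906 at an unadjusted p under 0.05) or in male CV (0% of all features, 1 member, Irf4 at −0.87 with SE 0.35, against 393). The leptin response of female WT CV likewise differed from that of LV for no member, beside 2.53% of all features, with 0 at an unadjusted p under 0.05 against 2378, where the difference (CV minus LV) was 1.35 for Vpreb1 (SE 1.38) and −0.12 for H2-Aa (SE 0.17). DESeq2 and limma called 0 members in each of these 4 tests.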

How the data were processed

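RNA was enriched with oligo dT, sequenced as paired 100 base reads, filtered with SOAPnuke and aligned with HISAT and Bowtie2. The study names GRCm38.p6, and the submitters' processing notes also list GRCm39. The authors deposited estimated counts per gene, not normalised between samples, and TPM values. The counting tool and whether it used strand are not given in the sources used here, so reads of Rag2, Cd72, Fcer2a, Cxcr5, Tnfrsf13b and Ciita may be shared with overlapping genes. Estimated counts were rounded (51 values were not whole).

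Groups came from the sample labels, mice and their number series from the same labels. Features with a mean of at least 0.4 TPM (14873) were tested in edgeR 4.0.16 (R 4.3.3) by the quasi-likelihood test with TMM scaling. P-values were adjusted over all of these features. Each fit held the groups compared only, except that the insulin comparisons shared a fit of all male WT CV groups. Alternatives were DESeq2 1.42.0, limma 3.58.1 on log2(TPM + 1), RLE size factors, no filter, the series as a covariate, a replicate block, and each library left out. The steps were tested on simulated data. Libraries of a group differed by more than counting noise (lowest chi-square per gene 10.7). TPM gives no counting interval, and for low genes the counts per library are given.

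Members and lists were chosen with earlier results of these data known. Members were to be given in every sample where called, up to 3 in each role, or else the 1 or 2 with the highest mean TPM. Other values, among them those of Cd22, H2-Aa, Dntt and Fcer2a in LV and iWAT, were chosen after they were seen. Other lists are given by counts and up to 4 named genes, with more named in places. Ccr7, H2-Eb1, Cd3d, Lep, and in iWAT Cxcl13 and the plasma cell genes outside the members, were chosen after their values were seen. Libraries of 1 group came from separate mice, and the 3 tissues of a female carry the same mouse number: their deviations from the group means correlated at −0.005 to 0.239 for CV and LV, and the tissue pairing comes from the labels. With the mouse as a block CV against LV gave 24 members called, CV against iWAT 10 and LV against iWAT 23, and no count moved by over 1.5 times. Beside these, 9904, 7446 and 9907 of all 14873 features were called, in the same order.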

Additional observations from a re-analysis of the deposited data

Results flagged for a closer look

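Summed levels of each role were compared among the mice of each group, for the 5 roles in each of the 16 groups (80 sets of values), and 9 sums stood apart by Dixon's criterion, which chance meets in about 1 of 20 sets. No cause was tested. Precursor genes summed to 39.3 TPM in CV of male WT replicate 6 with leptin and insulin, against 17.3 to 24.2 in the others. In LV of female cKO replicate 2 with leptin the genes used at most stages summed to 517 TPM against 328 to 354, and the mature genes to 142 against 81.1 to 89.9. The antigen presentation genes summed to 3409 TPM in CV of male WT replicate 1 with PBS and insulin, against 1804 to 2202, and to 1705 in CV of male cKO replicate 4 with leptin, against 2974 to 3193. Plasma cell genes summed to 367 TPM in CV of male WT replicate 3 with PBS (others 175 to 225), 141 in male WT replicate 4 with leptin and insulin (others 271 to 330), 534 in LV of female WT replicate 3 with PBS (others 400 to 436) and 703 in iWAT of female WT replicate 4 with leptin (others 407 to 449).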

How the results depend on the processing

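Of 118 named values under 1923 alternatives, 1774 kept their side of the threshold, 90 lost and 48 gained a call. A further 11 changed sign with a call before or after the change. Changes of sign between uncalled values were counted as kept. An example is Cd79a in female WT LV, at 0.06 in the main fit and −0.02 with the series covariate. All 11 came from limma on log2(TPM + 1) between tissues, whose scale moved the median of all features: for CV against LV Lef1 (0.31), Cd79a (0.42), Blnk (0.23), Ms4a1 (0.20), Cxcr5 (0.34), Fcrl1 (0.32) and Xbp1 (0.56), and for LV against iWAT Pax5 (−0.051), Blnk (−0.054), Blk (−0.087) and Bach2 (−0.15). Of the counts of members called by leptin, DESeq2 gave 1 in female WT CV, 1 in female cKO CV and 4 in male cKO CV. Beside these, 1017, 219 and 214 of all 14873 features were called. DESeq2 also gave 6 in WT LV, 3 in cKO LV and 9 in iWAT, beside 144, 72 and 2506 of all features. limma gave 1 in female WT CV, beside 622 of all features, and no filter gave 2 in male cKO CV, beside 31 of 18370 features. The series covariate gave 0 in male cKO CV and 6 in WT LV, beside 13 and 78 of all features. The joint fits, chosen after seeing the data, gave 3 members over the CV libraries and 6 over the LV libraries, beside 5.37% and 1.11% of all features. Each is 1 shared leptin effect, not a result of a single group. It was entered under each of the 4 CV or 2 LV comparisons, also in the count of alternatives above. The cause of these shifts was not tested.

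Leaving out each library in turn gave 0 to 5 members in female WT CV, 0 to 1 in male WT CV, 0 to 4 in male cKO CV, 3 to 19 in iWAT and 0 to 1 for the difference in leptin response between CV and LV, where the call was Jchain without the CV PBS mouse of replicate 5. Of all 14873 features, 302 to 941, 130 to 338, 5 to 65, 1744 to 2845 and 258 to 469 were called, in the same order. The tissue counts ran from 22 to 24 (CV against LV), 8 to 11 (CV against iWAT) and 19 to 25 (LV against iWAT). Beside these, 9825 to 9929, 7319 to 7568 and 9811 to 9923 of all features were called.

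Between treatments the replicate numbers did not pair the mice, since correlations of same-numbered mice ran from −0.402 to 0.510. With a replicate block there was 1 member called in female WT CV, 0 in male WT CV, 0 in male cKO CV and 5 in iWAT. Beside these, 832, 65, 14 and 2229 of all 14873 features were called, and no other count of leptin calls changed.

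Depth limits the precursor genes outside LV, where Vpreb1 and Igll1 rested on 0 to 12 counts per library.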

Other observations

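Over the 51 CV libraries the tested genes most like Cd79a by Pearson's r of log2(TPM + 1) included H2-DMb2 (0.953), H2-Ob (0.944), Rhoh (0.923) and Ly6d (0.918), given as a description of libraries that share tissue and treatments. Among the members the median r with Cd79a was 0.80 for genes used at most stages, 0.78 for mature genes, 0.78 for antigen presentation genes, 0.36 for precursor genes and 0.21 for plasma cell genes. The values were 0.742 for Mzb1 and 0.80 for Vpreb3, and 0.119 for Prdm1, 0.183 for Irf4 and 0.218 for Vpreb1. Across the 18 females the levels in CV and LV of the same mouse had an r of −0.127 for Cd79a, −0.120 for Ms4a1 and 0.477 for Cd74.

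In male WT CV with leptin, Ms4a1 relative to Cd79a differed by mouse number series. It was at 3.41% to 4.44% of the Cd79a level in 3 mice of the 600s series and at 7.52% to 9.48% in 5 mice of the 100s series. PBS mice of both series were at 8.70% to 10.3%. The difference was not tested.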
